A study of Mus musculus with 12 samples.

Results

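Ribosome footprints of genes were compared between Mael-/- and Mael+/- testes. They were read from 6 of the 12 libraries of the series, 3 of each genotype, and from all 20620 gene rows of the count table, which also holds copies of genomic repeats not described here. Of these genes, 17434 had at least 1 footprint and 13500 passed the filter on low counts. The mice were C57BL/6 at postnatal day 16 (P16), and the testes were treated with cycloheximide, which holds ribosomes on the mRNA, when they were collected. The controls carried 1 mutant Mael allele. Whole testes were used, so fewer cells of a type and fewer footprints per cell of that type cannot be told apart.

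A translating ribosome shields a short stretch of mRNA from nuclease. The number of such stretches that fall within a coding sequence reflects both how much of the mRNA there is and how densely ribosomes sit on it. Mael encodes Maelstrom, a germ cell protein that acts in the piRNA pathway, in which small RNAs silence transposons in the male germ line, and mutants are known for a block in meiosis. At P16 the first wave of germ cells has reached meiotic prophase, with the most advanced cells in pachytene, and the other cells are spermatogonia, the Sertoli cells that nurse them and the Leydig, peritubular, vascular and immune cells around the tubules.

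Gene counts summed to between 7609932 and 13233565 per footprint library and between 13697267 and 27462358 per RNA library made from the same extracts, and no pair of libraries held identical counts. Levels are given in CPM, counts per 1000000 of a library's gene counts after trimmed-mean (TMM) scaling. Sertoli genes held 16560 to 21760 CPM of footprints per library, and the most abundant of them, Clu, had 7780 CPM ± 1030 (SD, n = 3) in Mael+/- libraries. Footprints of the 6 adult hemoglobin genes in the table were at 0 in every library, as were those of the ribosomal protein genes Rpl34 and Rps27, so a 0 in this table can also stand for a gene that cells use. Intervals of pooled ratios, and bounds taken from counts of 0, cover counting error only.

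One library stood apart before any comparison. In Mael+/- replicate 1, 272 of the 13500 genes were more than 2-fold above the mean of the other Mael+/- libraries and 50 were more than 2-fold below it. In Mael+/- replicates 2 and 3, whose comparison includes replicate 1, 35 and 56 genes were above and 185 and 124 below. In the Mael-/- libraries the same count was 8 to 12 above and 14 to 20 below. The genes that were high in replicate 1 included the markers of late meiotic cells. Pachytene genes summed to 1099 CPM in replicate 1, against 387.3 and 431.3 CPM in replicates 2 and 3 and 316.9 to 360.6 CPM in Mael-/- libraries. Flagellum genes summed to 838.8 CPM there, against 313.7 and 339.0 CPM in the other Mael+/- libraries and 296.6 to 305.9 CPM in Mael-/- libraries. Of 20 pachytene markers, 11 passed the filter, and the haploid-stage gene Acrv1 was at 0 in all 3 Mael+/- libraries. The estimated biological coefficient of variation was 12.3% over the 6 libraries and 9.07% without replicate 1. The main results are therefore given with and without it, and the part that the number of late meiotic cells plays in any result was not tested.

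**Figure D1:**
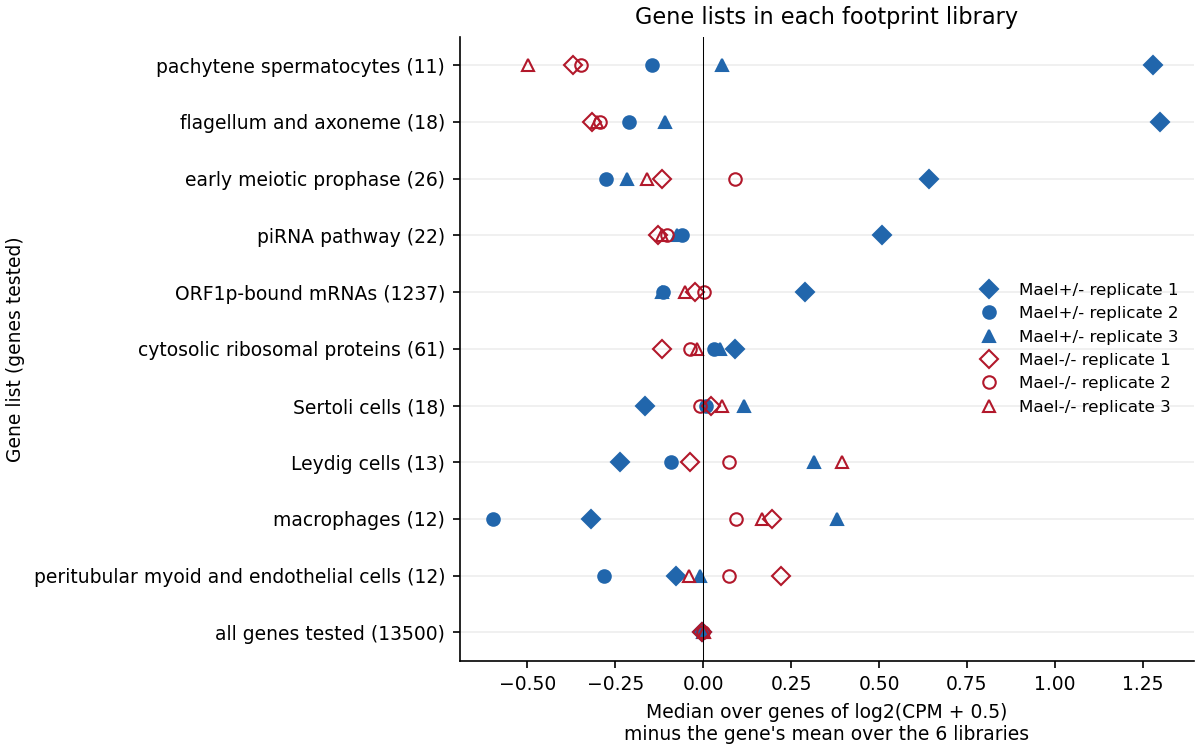
Each point is 1 footprint library. Its position is the median over the genes of a list of log2(CPM + 0.5) minus that gene's mean over the 6 libraries, and the number of genes is in brackets. Mael+/- replicate 1 lay at 1.28 for pachytene genes and 1.30 for flagellum genes, while the 5 other libraries lay between -0.498 and 0.0524.

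Few genes passed the test. With all 6 libraries, 8 of 13500 genes (0.0593%) had an adjusted p under 0.05 in edgeR's quasi-likelihood test. Of these, 7 (0.0519% of genes tested) had more footprints in Mael-/- libraries, and 1 (0.00741%), Mael itself, had fewer. Without Mael+/- replicate 1, 17 of 13654 genes (0.125%) passed, 12 higher (0.0879%) and 5 lower (0.0366%), and all 8 genes of the first set were among them. Mael-/- libraries lay above all Mael+/- libraries for 4.24% of genes and below for 4.85%, and for 10.9% and 10.5% when replicate 1 was left out.

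Footprints on Mael were the check of the genotype. They stood at 137, 85.4 and 84.2 CPM in Mael+/- replicates 1 to 3. In Mael-/- libraries they were at 0 in replicates 1 and 2 and at 0.83 CPM, which is 7 counts, in replicate 3. The log2 change was -8.76 (SE 0.49, adjusted p 3.33e-05 in edgeR), and -8.50 (SE 0.36) without Mael+/- replicate 1. RNA of Mael in the same extracts was 144 to 219 CPM in Mael+/- and 0 to 0.0991 CPM in Mael-/- libraries.

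Beyond Mael, the 7 genes called with all libraries all gained footprints in Mael-/- testes. They were Pkhd1l1 and Pkhd1, which encode large membrane proteins of the fibrocystin family; Reg2, a secreted C-type lectin of the regenerating protein family; Lrp1b, a very large receptor of the LDL receptor family; Csmd1, a transmembrane protein with CUB and sushi domains; Gc, the vitamin D binding protein that liver secretes; and Cdh26, a cadherin. A footprint is about as long as the stretch of 30 bases shown here for each gene, which is the beginning of its longest coding sequence in GENCODE M21 (GRCm38), with the start codon in capitals; the starts are shown because footprints were counted in coding sequence alone.

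Pkhd1l1: ATGggacacctgtggctctcagggacctgg
Pkhd1: ATGatgcttgcctggctggtctctctgctg
Reg2: ATGgctcagaacaatgtataccttatcctg
Lrp1b: ATGtcccagttgctccttgccatccttact
Csmd1: ATGactgcgtggaggaaattcaagtcgctg
Gc: ATGaagagggttctggttctcctgctggcc
Cdh26: ATGgacaccagaggctgtgcctggttgctg

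None of the 30-base windows of the coding sequences of Pkhd1l1, Pkhd1, Reg2, Gc and Cdh26 occurred in an annotated transcript of another gene. For Csmd1, 15 of 10666 windows (0.141%) also occurred in Csmd3, and for Lrp1b 72 of 13771 (0.523%) occurred in Gm27348. By exact matches, few annotated transcripts of other genes could thus add to the counts of these 7 genes. Inexact matches and copies of genomic repeats outside annotated transcripts were not searched, so reads from those could not be seen.

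Among the 7 raised genes, Pkhd1l1 had the smallest p. Its footprints were 0.53, 0.259 and 0.683 CPM in Mael+/- replicates 1 to 3 and 8.48, 8.08 and 8.78 CPM in Mael-/- replicates 1 to 3. The groups were well apart, with a log2 change of 4.02 (SE 0.30, adjusted p 0.000366) and 4.05 (SE 0.35) without Mael+/- replicate 1. Its relative Pkhd1, the gene of recessive polycystic kidney disease, had 0.742, 0.776 and 0.195 CPM against 5.68, 6.98 and 4.39 CPM. The change was 3.34 (SE 0.40, adjusted p 0.0165) and 3.64 (SE 0.46) without replicate 1. The 2 genes lie on different chromosomes, Pkhd1l1 at chr15:44457494-44601369 and Pkhd1 at chr1:20057779-20618064.

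Reg2 was nearly absent from Mael+/- libraries. A single footprint was counted in all Mael+/- libraries together, in replicate 3 (0.0975 CPM), against 7.27, 13.7 and 5.93 CPM in Mael-/- replicates 1 to 3. The pooled ratio was 245 (95% interval 43.6 to 9710), and 161 (28.6 to 6370) without Mael+/- replicate 1, with adjusted p of 0.00148 and 0.00337. Reg2 lies at chr6:78395623-78408106. The other family members in the table, Reg1, Reg3a, Reg3b, Reg3d, Reg3g and Reg4, had at most 0.2 CPM in any library and did not pass the filter.

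Cdh26 had no footprint in any Mael+/- library and 23, 19 and 11 counts (1.74, 1.90 and 1.31 CPM) in Mael-/- replicates 1 to 3. It was thus at least 15.3-fold higher, taking 3 counts over the Mael+/- group as the most that the 0 allows, and at least 10-fold higher without replicate 1 (adjusted p 0.0393 and 0.0391). The cadherins that testis is known to express behaved differently: Cdh2 ran from 133 to 163 CPM in Mael+/- and from 142 to 164 CPM in Mael-/- libraries, and Cdh5 from 54.6 to 70.0 and from 58.0 to 65.9 CPM, so both groups overlapped.

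Lrp1b and Gc had 2 footprints each in all Mael+/- libraries together. Lrp1b rose to 1.82, 2.49 and 1.54 CPM in Mael-/- replicates 1 to 3, a pooled ratio of 26.8 (7.12 to 227), and of 35.2 (6.09 to 1410) without Mael+/- replicate 1. Gc rose to 1.74, 2.39 and 1.42 CPM, a pooled ratio of 25.5 (6.76 to 216), and of 33.5 (5.79 to 1350) without that library. Adjusted p was 0.0368 for both with all libraries and 0.0441 without replicate 1. Lrp1, the broadly expressed relative of Lrp1b, stood at 876 to 958 CPM in Mael+/- and 979 to 1000 CPM in Mael-/- libraries (log2 change 0.12, SE 0.09, adjusted p 0.998). Of the albumin family to which Gc belongs, Alb had at most 0.53 CPM in any library. Afp had 7.74, 9.96 and 7.80 CPM in Mael+/- replicates 1 to 3 against 7.27, 8.48 and 8.42 CPM in Mael-/- replicates. Its log2 change was -0.08 (SE 0.18), and -0.14 (SE 0.19) without Mael+/- replicate 1. Afm had 1.17, 0.905 and 0.39 CPM against 1.59, 1.5 and 1.07 CPM (log2 change 0.79, SE 0.42, adjusted p 0.998). Without Mael+/- replicate 1 the change of Afm was 1.18 (SE 0.49, unadjusted p 0.0338, adjusted p 0.768 in edgeR), and all Mael-/- libraries lay above Mael+/- replicates 2 and 3.

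Csmd1 had 5, 9 and 9 footprint counts in Mael+/- replicates 1 to 3. These were 0.53, 1.16 and 0.878 CPM, against 4.09, 5.99 and 4.03 CPM in Mael-/- replicates 1 to 3. The change was 2.46 (SE 0.34, adjusted p 0.0368), or 2.21 (SE 0.36, adjusted p 0.0441) without replicate 1. Csmd2 had 0.776 to 1.48 CPM in Mael+/- and 1.30 to 2.14 CPM in Mael-/- libraries, and did not pass the test (log2 change 0.67, SE 0.38, adjusted p 0.998). Without replicate 1 its change was 1.04 (SE 0.43, unadjusted p 0.0329, adjusted p 0.766 in edgeR), and all Mael-/- libraries lay above Mael+/- replicates 2 and 3.

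Of the 8 genes called with all libraries, Mael and Pkhd1l1 kept an adjusted p under 0.05 when any 1 library was left out. Reg2 lost it without Mael+/- replicate 3 (adjusted p 0.0647). Pkhd1 lost it without either of Mael+/- replicates 2 and 3 or Mael-/- replicates 1 and 2 (0.0576 to 0.117). Lrp1b, Csmd1, Gc and Cdh26 lost it without any library other than Mael+/- replicate 1 (0.0771 to 0.262). The direction stayed the same for all 8 genes.

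**Figure D2:**
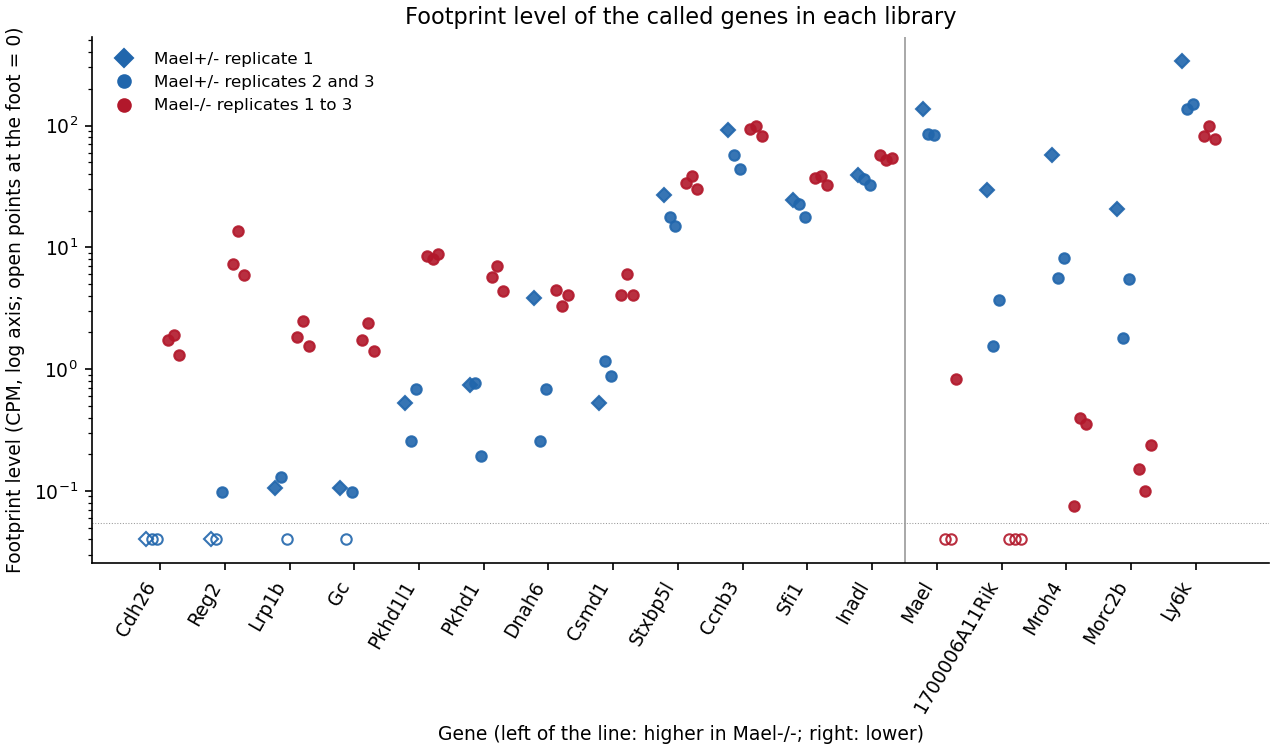
Footprint level in CPM (log axis) of the 17 genes called with or without Mael+/- replicate 1, 1 point per library. Genes left of the line were higher in Mael-/- and genes right of it lower. Mael+/- replicate 1 (diamonds) overlapped the Mael-/- libraries only for Dnah6 and Ccnb3, and lay above the other Mael+/- libraries for each gene right of the line.

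Even when raised, these genes had footprint levels per kilobase of coding sequence below that of the median gene tested in Mael+/- libraries. Per kilobase of coding sequence, the mean level in Mael-/- libraries was 17.3 CPM for Reg2, 1.30 for Gc, 0.72 for Cdh26, 0.662 for Pkhd1l1, 0.467 for Pkhd1, 0.44 for Csmd1 and 0.14 for Lrp1b. The median gene tested had 23.7 CPM per kilobase in Mael+/- libraries. When the genes tested were divided into 5 equal classes by mean footprint level per kilobase over the 6 libraries of both genotypes, 6 of the 7 were in the lowest class. The 10 genes with the highest levels were, in Mael+/- libraries, histone genes (Hist1h2ba, Hist1h1a, Hist1h4c, Hist3h2a and H2afx), the actin-binding Tmsb4x, and Sertoli and epithelial secretory genes (Clu, Cst9, Cst12 and Defb19), and none of these was called by edgeR in either fit; DESeq2 called H2afx without Mael+/- replicate 1.

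**Figure D3:**
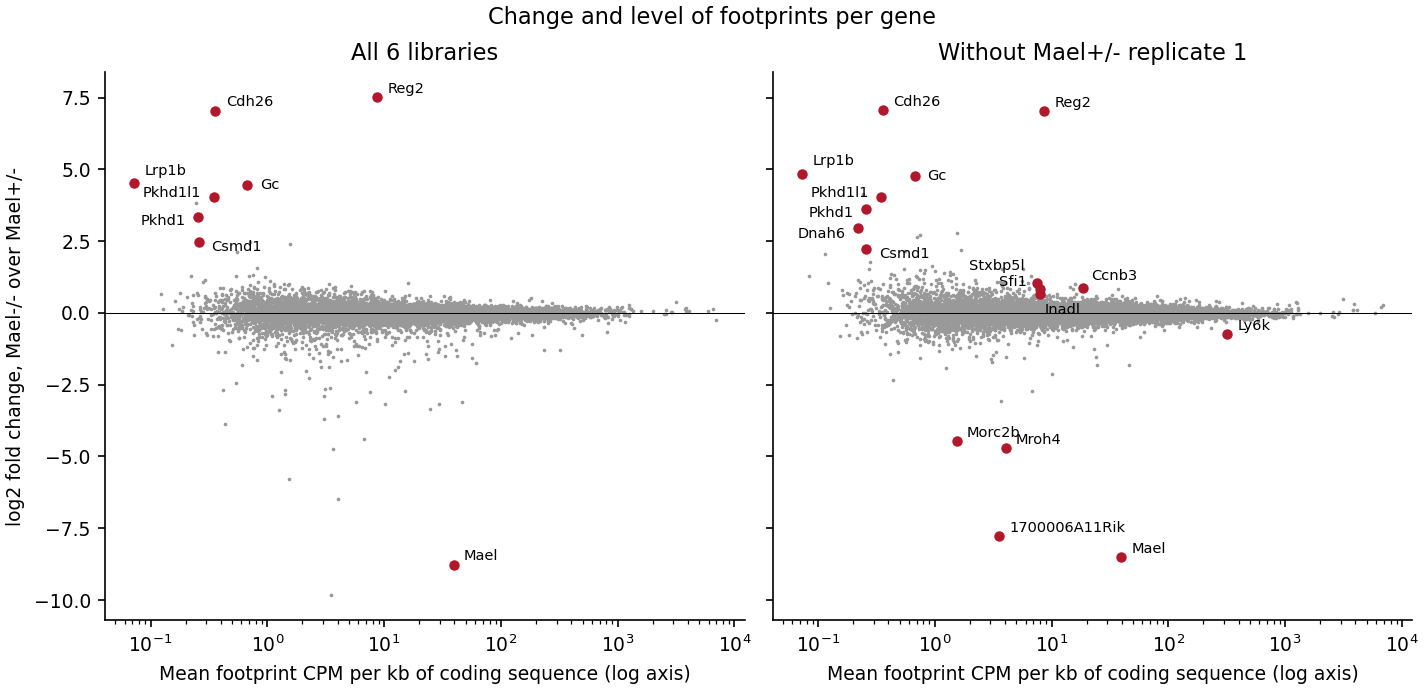
Each dot is a gene, placed by its mean footprint level per kilobase of coding sequence (log axis) and its log2 change between genotypes, with all 6 libraries on the left and without Mael+/- replicate 1 on the right. Called genes are red and named. On the left 7 named genes were higher and 1 lower, on the right 12 and 5.

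DESeq2 gave a longer list on the lower side. With all libraries it called 26 genes, 8 higher and 18 lower, and 7 of the 8 edgeR genes were among them. Each of the 18 lower genes had its highest level in Mael+/- replicate 1, and for 17 of them replicates 2 and 3 also lay above all Mael-/- libraries. Over all genes tested without replicate 1, 10.5% lay so. The 18 genes were picked by a test of these same libraries, so their separation is no further evidence. Without replicate 1 DESeq2 called 31, of which 22 were higher and 9 lower.

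In edgeR, leaving out Mael+/- replicate 1 added 9 genes. There were 5 with more footprints in Mael-/- libraries, and 3 of them act in cell division or in axonemes: Ccnb3, a cyclin of meiosis, Sfi1, a centrosomal protein, and Dnah6, a heavy chain of axonemal dynein. The others were Stxbp5l, a tomosyn that binds SNARE proteins, and Inadl, a PDZ scaffold of tight junctions also called Patj.

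Stxbp5l had 26.9, 17.7 and 15.1 CPM in Mael+/- replicates 1 to 3 and 33.5, 38.5 and 30 CPM in Mael-/- replicates, with a log2 change of 0.77 (SE 0.20, adjusted p 0.694) over 6 libraries and 1.06 (SE 0.15, adjusted p 0.023) without replicate 1. Ccnb3 had 91.6, 57.0 and 44.3 CPM against 94.4, 100 and 81.4 CPM, so replicate 1 lay within the Mael-/- range. Its change was 0.52 (SE 0.21, adjusted p 0.998) over 6 libraries and 0.87 (SE 0.13, adjusted p 0.0263) without replicate 1. Dnah6 showed the same layout, with 3.82, 0.259 and 0.683 CPM against 4.47, 3.29 and 4.03 CPM and a change of 1.28 (SE 0.59, adjusted p 0.998), or 2.96 (SE 0.43, adjusted p 0.0263) without replicate 1. Inadl and Sfi1 did not depend on replicate 1 for the separation of the groups. Inadl ran from 32.7 to 39.0 CPM in Mael+/- and from 52.5 to 57.8 CPM in Mael-/- libraries (0.61, SE 0.11, then 0.67, SE 0.11), and Sfi1 from 17.6 to 24.6 and from 32.7 to 38.5 CPM (0.74, SE 0.14, then 0.85, SE 0.14). Of the coding windows of Sfi1, 13.6% also occurred in other genes, most of them in Gm2420, so its counts are uncertain.

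The 4 genes added on the lower side were Mroh4, of a family of proteins with HEAT-like repeats, 1700006A11Rik, Morc2b, a relative of Morc2a that is expressed in meiosis, and Ly6k, a GPI-anchored protein of germ cells. The beginnings of their coding sequences and that of Mael, in the same form as above, show that none repeats another, and of the coding windows of Morc2b only 10 of 3040 (0.329%) also occurred in Morc2a, with none shared for the other 4 genes.

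Mael: ATGcccaaccgcagggccagccgcaatgcc
Mroh4: ATGgtggtcaataagatcaagaacatgatg
1700006A11Rik: ATGataatgagcaaccatcaaggaacttct
Morc2b: ATGgcgtttaccaattacagcactctcaac
Ly6k: ATGgcgttcctagtggccttgctcgtagtt

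Mroh4 had 57.1, 5.56 and 8.19 CPM in Mael+/- replicates 1 to 3 and 0.0757, 0.399 and 0.356 CPM in Mael-/- replicates. All Mael-/- libraries lay far below the lowest Mael+/- library. The log2 change was -6.48 (SE 1.14, adjusted p 0.177) over 6 libraries and -4.71 (SE 0.44, adjusted p 0.000752) without it. Morc2b had 20.6, 1.81 and 5.46 CPM against 0.151, 0.0998 and 0.237 CPM, with a change of -5.78 (SE 1.01, adjusted p 0.177), or -4.47 (SE 0.63, adjusted p 0.0237) without replicate 1. 1700006A11Rik had 29.3, 1.55 and 3.71 CPM and no footprint in any Mael-/- library, at least 126-fold lower over 6 libraries and at least 29.3-fold lower without replicate 1, taking 3 counts over the group (adjusted p 0.568 and 0.0263).

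Ly6k kept a larger share of its footprints than these 3. It had 341, 137 and 150 CPM against 81.8, 98.6 and 77.8 CPM, a change of -1.28 (SE 0.29, adjusted p 0.568), or -0.74 (SE 0.11, adjusted p 0.0263) without replicate 1. Ly6k at chr15:74796874-74799986 and Mroh4 at chr15:74606029-74636353 are 160520 bases apart, the closest pair among the 17 called genes.

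RNA of the same extracts was counted over whole mRNAs, and 17 of 14685 genes (0.116%) were called in it, or 64 of 14876 (0.43%) without Mael+/- replicate 1. The RNA and footprint libraries share their extracts, so the values stand side by side only. Among the raised genes the RNA log2 change was 3.59, and 3.43 without Mael+/- replicate 1, for Pkhd1l1, 2.97 and then 2.80 for Pkhd1, 4.97 and then 4.49 for Lrp1b, and 3.61 and then 3.39 for Csmd1. Reg2 had no RNA count in any Mael+/- library and 38, 102 and 74 counts in Mael-/- replicates 1 to 3, Gc had 3 counts over the Mael+/- group against 33, 87 and 69, and Cdh26 had 3, all in replicate 1, against 19, 24 and 32. RNA of all 7 had an adjusted p under 0.05 in both fits. For the lower genes the RNA change was -6.76 and then -4.99 for Mroh4, -5.91 and then -4.16 for Morc2b, and -1.28 and then -0.73 for Ly6k, and 1700006A11Rik had 635, 50 and 114 RNA counts against 3, 0 and 0. These 4 had adjusted p of 0.114 to 0.501 with all libraries and under 0.05 without replicate 1.

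Whether footprints changed more or less than RNA was tested as the interaction of genotype and assay over the 12 libraries. No gene of 13448 (0.0%) was called, 53 had an unadjusted p under 0.05, and with the extract as a block, as the shared deviations of the extracts call for, again 0 (0.0%) were called and 279 had an unadjusted p under 0.05. Without both assays of Mael+/- extract 1, 0 of 13608 (0.0%) were called and 117 had an unadjusted p under 0.05. The intervals that follow come from the fit without the block. Their errors leave out the sharing of extracts, and intervals with the block are not given here. In that fit, the 95% interval of the change of footprints beyond RNA excluded 0 for Csmd1 alone among the 7 raised genes (log2 -1.13, SE 0.49, interval -2.17 to -0.08, unadjusted p 0.0364), and without Mael+/- extract 1 its unadjusted p was 0.0505. For Pkhd1l1 it was 0.45 (SE 0.40, interval -0.42 to 1.32). For Reg2, Gc, Lrp1b and Cdh26 the intervals spanned at least 5 units.

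Below the call threshold, leaving out Mael+/- replicate 1 changed the number of higher genes more than that of lower genes. With 6 libraries an unadjusted p under 0.05 was reached by 209 genes that were higher (1.55%) and 376 that were lower (2.79%) in Mael-/- testes. Without replicate 1 these were 434 (3.18%) and 401 (2.94%). Of the 209 higher genes, 147 (70.3%) also had an unadjusted p under 0.05 without replicate 1, and the median change of the 209 was 0.47 in both fits. Of the 376 lower genes, 186 (49.5%) did, and their median change moved from -0.61 to -0.36. Conversely, of the genes with such a p without replicate 1 that were tested in both fits, 34.6% of 425 higher and 47.3% of 393 lower genes also had it with 6 libraries. The values of gene lists that follow are read against these shares and against the median over all genes tested, which was -0.0086 with 6 libraries and -0.0050 without replicate 1.

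Pachytene genes had the lowest median change of all lists in both fits. Of 11 pachytene genes tested, 10 had a negative change, 7 with an unadjusted p under 0.05, and the median was -0.92. Without Mael+/- replicate 1 the median was -0.42, 9 were negative and 7 again had an unadjusted p under 0.05, with no member called in either fit. Ldhc, the lactate dehydrogenase of sperm, had 135, 6.73 and 18.5 CPM in Mael+/- replicates 1 to 3 and 6.58, 4.89 and 6.41 CPM in Mael-/- replicates (-3.16, SE 0.86, then -1.12, SE 0.33). Ybx2, a protein that stores germ cell mRNAs, had 85.4, 26.3 and 27.3 CPM against 17.9, 18.7 and 17.3 CPM (-1.37, SE 0.39, then -0.58, SE 0.12). Adam2, part of fertilin on the sperm surface, had 31.7, 2.33 and 3.90 CPM against 1.29, 0.898 and 0.593 CPM (-3.71, SE 0.93, then -1.71, SE 0.39). The Mael-/- values of these 3 genes lay below all Mael+/- values, for Ldhc by a small margin in Mael+/- replicate 2.

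Flagellum and axoneme genes followed replicate 1 more closely. Of 18 tested, 17 were negative with a median of -0.86 and 11 had an unadjusted p under 0.05. Without replicate 1, 11 were negative, the median was -0.20 and 2 had an unadjusted p under 0.05 with a lower level, Tekt1, a filament of the axoneme (-2.64, SE 0.64, then -1.46, SE 0.38), and Rsph1, a radial spoke protein (-1.28, SE 0.43, then -0.37, SE 0.16). In the other direction, Akap3, an anchoring protein of the sperm tail, had 3.5 CPM in Mael+/- replicate 1 and at most 1.81 CPM in the other Mael+/- libraries, against 2.72, 2.69 and 2.85 CPM in Mael-/- replicates (0.40, SE 0.39, then 1.02, SE 0.36, unadjusted p 0.0141 without replicate 1). Dnah8 had 212 CPM in Mael+/- replicate 1 and 65.2 and 56.5 CPM in the others, against 40.0, 60.6 and 57.7 CPM in Mael-/- libraries, and its change went from -1.08 (SE 0.42) to -0.21 (SE 0.16). The acrosome list had 9 of its 18 genes tested, and its median went from -0.24 to -0.08.

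Genes of early meiotic prophase turned sign with the choice of libraries. The 26 genes, all tested, had a median of -0.22 with 6 libraries, 18 negative, and 0.17 without Mael+/- replicate 1, 19 positive. The number with an unadjusted p under 0.05 went from 3 lower and none higher to 7 higher and none lower. Smc1b, the meiotic cohesin, had 444, 249 and 258 CPM in Mael+/- replicates 1 to 3 and 357, 341 and 322 CPM in Mael-/- replicates (0.10, SE 0.19, then 0.42, SE 0.09, unadjusted p 0.000628 and adjusted p 0.185). Ythdc2, an RNA helicase needed to enter meiotic prophase, had 169, 96.2 and 98.7 CPM against 128, 132 and 126 CPM (0.08, SE 0.19, then 0.40, SE 0.09). Sycp3, of the synaptonemal complex, had 878, 266 and 336 CPM against 288, 290 and 288 CPM (-0.77, SE 0.35, then -0.06, SE 0.11). Replicate 1 lay above all Mael-/- libraries for each of these 3 genes, and replicates 2 and 3 lay below them for Smc1b and Ythdc2.

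The 22 piRNA pathway genes other than Mael were mostly lower, 20 of 22 with a median of -0.26, of which 6 had an unadjusted p under 0.05. Without Mael+/- replicate 1, 13 were negative with a median of -0.04 and 3 had an unadjusted p under 0.05, all lower. These 3 were Piwil1, the PIWI protein of pachytene cells, with 107, 15 and 20.9 CPM against 8.78, 11.3 and 10.9 CPM (-2.22, SE 0.61, then -0.82, SE 0.18), Tdrd9 (-0.53, SE 0.16, then -0.28, SE 0.09) and Mov10l1 (-0.52, SE 0.19, then -0.20, SE 0.09), both RNA helicases of the pathway. None was called.

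**Figure D4:**
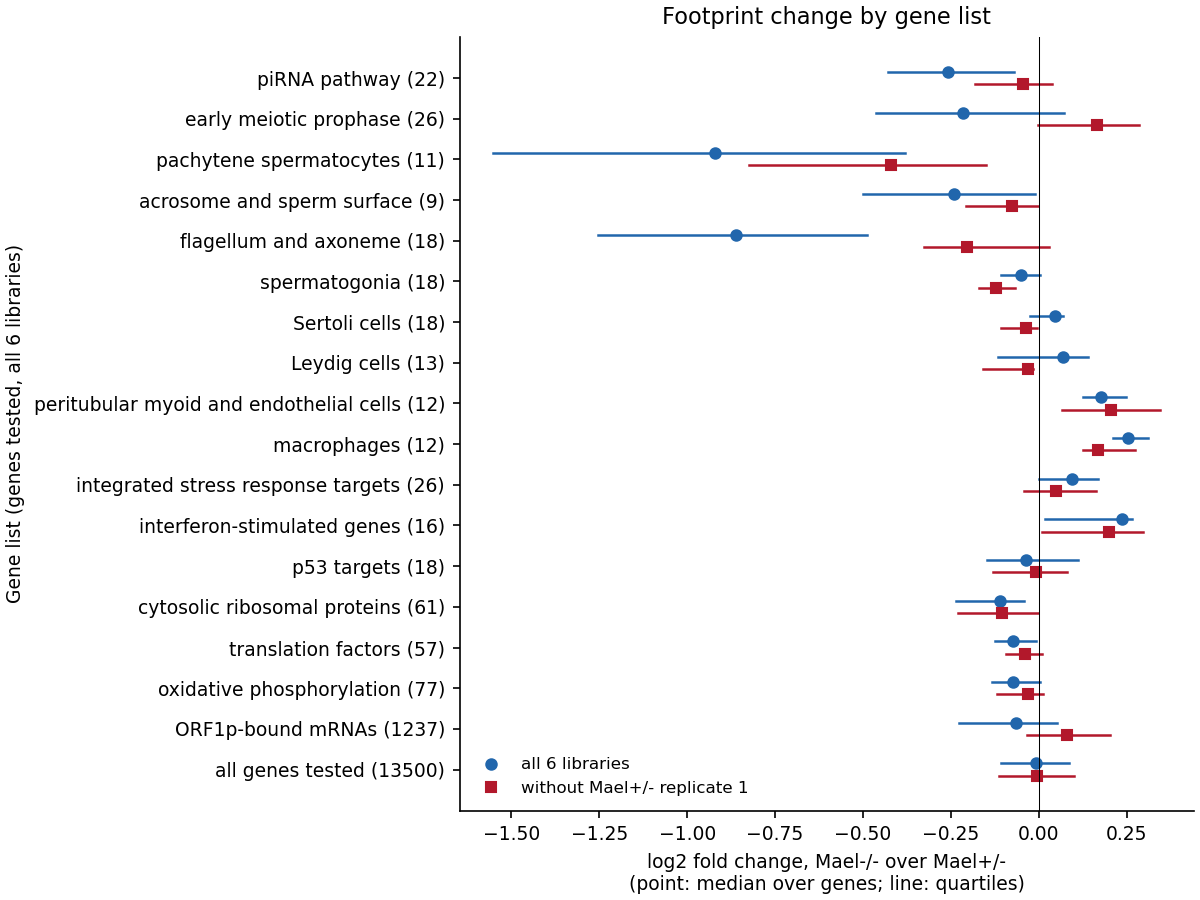
Median (points) and quartiles (lines) over the genes of each list of the log2 change in footprints, Mael-/- over Mael+/-, with all 6 libraries (blue) and without Mael+/- replicate 1 (red). The pachytene median moved from -0.92 to -0.42, the flagellum median from -0.86 to -0.20 and the early meiotic median from -0.22 to 0.17.

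No gene was called in the lists of other cell types. The 18 spermatogonial genes tested had a median of -0.05, and -0.12 without replicate 1, with 13 and 16 negative, and Sohlh2, which drives differentiation, had the smallest p over 6 libraries (-0.28, SE 0.11, unadjusted p 0.0311, then -0.19, SE 0.11). The 18 Sertoli genes had a median of 0.05, and -0.04 without replicate 1. Amh, the anti-Müllerian hormone that Sertoli cells lose as they mature, had 211, 383 and 371 CPM in Mael+/- replicates 1 to 3 and 225, 309 and 266 CPM in Mael-/- replicates (-0.27, SE 0.20, then -0.50, SE 0.12, adjusted p 0.266). The 13 Leydig genes had a median of 0.07 and then -0.03, and 1, Hsd17b3, the enzyme of the last step to testosterone, had an unadjusted p under 0.05 in both (-0.59, SE 0.18, then -0.61, SE 0.19). All 12 macrophage genes were higher in Mael-/- testes with a median of 0.25, or 11 of 12 with 0.17 without replicate 1, but none had an unadjusted p under 0.05, and their summed level, 235.2 to 463.0 CPM in Mael+/- and 371.6 to 432.6 CPM in Mael-/- libraries, overlapped. For the 12 peritubular and endothelial genes, 11 were higher, with a median of 0.18 and then 0.21, none and then 2 had an unadjusted p under 0.05, both higher, and the summed levels of 1269 to 1545 and 1526 to 1883 CPM overlapped too.

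Stress and defence genes gave no called member. Of 26 targets of the integrated stress response tested, the translational programme set off by phosphorylation of eIF2α, 19 were higher with a median of 0.09, and 4 had an unadjusted p under 0.05, all higher. Herpud1, of the degradation machinery of the endoplasmic reticulum, had 42.3, 44.1 and 49.4 CPM against 64.9, 55.9 and 57.9 CPM (0.40, SE 0.11, then 0.35, SE 0.11), and Ddit3, the transcription factor CHOP, 10.8, 10.1 and 9.17 CPM against 12.1, 14.3 and 13.1 CPM (0.39, SE 0.15, then 0.45, SE 0.16), both without overlap of the groups. Trib3 (0.57, SE 0.23, then 0.41, SE 0.23) and Sesn2 (0.28, SE 0.12, then 0.19, SE 0.11) were the others, and without replicate 1 the list had a median of 0.05 with 2 members higher and 2 lower at that p. Of 16 interferon-stimulated genes tested, 12 were higher with a median of 0.24, or 0.20 over 17 genes without replicate 1. With 6 libraries 1 had an unadjusted p under 0.05, Usp18, a protease that removes ISG15 (0.52, SE 0.23, then 0.45, SE 0.25). Its unadjusted p in edgeR was 0.0495, and 0.101 without replicate 1. The member with such a p was then Oas2, tested only in that fit (1.52, SE 0.62, unadjusted p 0.0299), at no more than 1.14 CPM in any library. The 18 p53 targets had medians of -0.04 and -0.01, with 1 lower at that p with 6 libraries, and 3 lower and 1 higher without replicate 1.

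The lists of the translation machinery had slightly negative medians. Of 61 cytosolic ribosomal protein genes tested among 80 in the table, 51 had a negative change with a median of -0.11, 9 with an unadjusted p under 0.05, and without replicate 1 it was 47 of 63 with a median of -0.10 and 5. The largest changes with such a p over 6 libraries were those of Rpl10l (-0.58, SE 0.18, then -0.30, SE 0.12) and Rpl39l (-0.52, SE 0.21, then -0.18, SE 0.12), which are germ cell paralogues of broadly expressed ribosomal proteins. Without replicate 1 the largest such change was that of Rpl37a (-0.43, SE 0.15), and Rpl39l no longer had such a p. The summed level of the list was 5792 to 6151 CPM in Mael+/- and 5255 to 5763 CPM in Mael-/- libraries. Several members were near 0 in every library, such as Rps6 (0.475 to 0.849 CPM) and Rpsa (0.259 to 0.698 CPM), and did not pass the filter. The sum and the median therefore describe mostly the other members, and the reason for the low counts was not tested. The 57 genes tested of the translation factor list, which also held the regulators Eif4ebp1, Eif4ebp2, Eif4ebp3 and Eef2k, had a median of -0.07, then -0.04. None had an unadjusted p under 0.05 over 6 libraries, and 1 had without replicate 1, the initiation factor Eif4a2, which was higher (0.18, SE 0.18, then 0.42, SE 0.14).

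In oxidative phosphorylation the largest changes at an unadjusted p under 0.05 were those of germ cell forms. The 77 genes tested had a median of -0.07, then -0.03, with 5 and then 6 lower at that p. Ndufs7 (-0.25, SE 0.09, then -0.27, SE 0.10) and Cox5b (-0.24, SE 0.11, then -0.25, SE 0.11) were among these in both fits. Cox8c had 39.5, 4.27 and 10 CPM in Mael+/- replicates 1 to 3 and 2.57, 1.70 and 1.90 CPM in Mael-/- replicates (-3.10, SE 0.69, then -1.80, SE 0.35). Cox6b2 had 59.6, 20.2 and 20.0 CPM against 10.7, 9.98 and 13.5 CPM (-1.55, SE 0.38, then -0.83, SE 0.16), and Cox7b2 147, 47.3 and 50.5 CPM against 33.8, 33.8 and 33.5 CPM (-1.28, SE 0.36, then -0.54, SE 0.10). These 3 subunits of cytochrome c oxidase are known from testis, and their Mael-/- values lay below every Mael+/- value, with adjusted p no lower than 0.0934 in either fit.

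Outside the lists, the genes with the smallest p and a mean of at least 20 counts were again low-level germ cell genes on the lower side. Zmynd10, which assembles axonemal dynein, had 22.3, 1.55 and 4.19 CPM against 0.454, 0.299 and 0.237 CPM (-4.72, SE 0.98, then -3.07, SE 0.53, adjusted p 0.0654 without replicate 1). Pdcl2, a phosducin-like protein of spermatids, had 22.2, 1.68 and 4.10 CPM against 0.53, 0.20 and 0.593 CPM (-4.37, SE 0.94, then -2.73, SE 0.51). Fabp9, a fatty acid binding protein of the sperm head, had 44.7, 4.14 and 8.68 CPM against 1.97, 1.40 and 2.25 CPM (-3.36, SE 0.77, then -1.81, SE 0.34). Their Mael-/- values lay below all Mael+/- libraries, as did those of 4.85% of all genes tested. These genes, like list members named by their p, were picked by a test of these same libraries. Their separation is thus no further evidence. On the higher side, Robo2, a receptor of Slit proteins, had 4.67, 4.53 and 4.68 CPM against 7.95, 11.5 and 8.42 CPM (1.0, SE 0.20, adjusted p 0.42, then 1.0, SE 0.23), Abcb1a, a drug efflux pump, had 7.53, 6.60 and 9.07 CPM against 12.6, 12.9 and 12.9 CPM (0.72, SE 0.16, adjusted p 0.568, then 0.69, SE 0.18), and Neb, the giant nebulin, had 54.2, 57.6 and 46.7 CPM against 73.2, 68.9 and 78.7 CPM (0.48, SE 0.11, adjusted p 0.568, then 0.50, SE 0.11).

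Most of the raised genes had long coding sequences. When the 13433 genes with an annotated coding sequence were divided into 5 equal classes of coding length, 4 of the 7 raised genes were in the longest class of 2668 bases or more, with coding lengths of 12762 bases for Pkhd1l1, 12177 for Pkhd1, 13925 for Lrp1b and 10692 for Csmd1. Coding length here, and in the levels per kilobase, counts each base that any annotated coding sequence of the gene covers once, without stop codons, and so differs from the length of a single transcript's coding sequence. Without Mael+/- replicate 1, 9 of the 12 raised genes were. At an unadjusted p under 0.05 without replicate 1 the longest class held 164 genes higher and 57 lower in Mael-/- testes, and the shortest, of 111 to 807 bases, held 47 higher and 106 lower. With 6 libraries the same classes held 61 and 59, and 29 and 99. Long coding sequences collect more footprints at the same density. With 6 libraries the median SE was 0.124 in the longest class and 0.147 in the shortest, and the part that this plays in these counts was not tested. The median change ran from -0.03 in the shortest class to 0.03 in the longest without replicate 1, so the shift of a whole class was small beside that of the named genes.

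**Figure D5:**
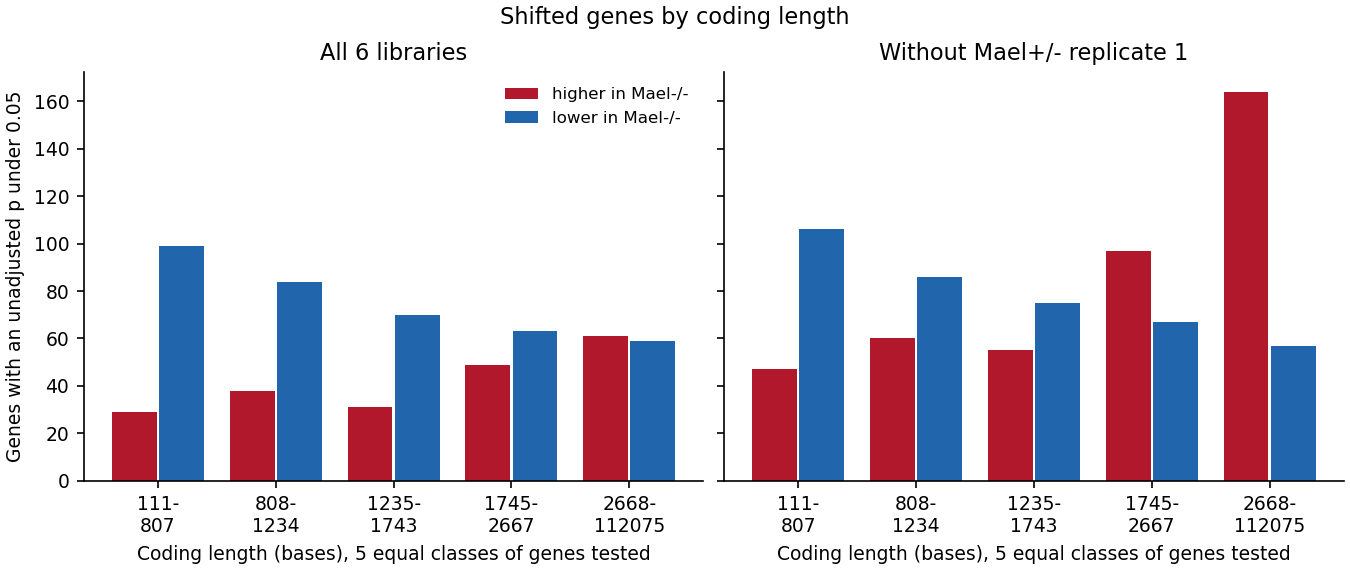
Number of genes with an unadjusted p under 0.05 that were higher (red) or lower (blue) in Mael-/- testes, in 5 equal classes of coding length, with all 6 libraries and without Mael+/- replicate 1. Higher genes went from 29 to 61 across the classes on the left and from 47 to 164 on the right.

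The study separately listed mRNAs bound by ORF1p, the RNA-binding protein that the retrotransposon LINE-1 encodes. The part of that list used here holds 1346 names, chosen by the study on other libraries of Mael-/- testes, so it favours genes that are expressed there and is not independent of the genotype. Of 1237 tested, 450 were higher and 787 lower with a median of -0.06, and 32 higher and 105 lower had an unadjusted p under 0.05. Without Mael+/- replicate 1 the median was 0.08 over 1244 genes, 854 were higher, and 170 higher and 44 lower had an unadjusted p under 0.05. The list holds 1237 of all 13500 genes tested. Among them are 5 of the 7 raised genes (Cdh26, Lrp1b, Pkhd1, Pkhd1l1 and Reg2) and 21 of the 26 early meiotic genes. Since the list was chosen on Mael-/- libraries, the membership of the raised genes is not independent of their rise, and a link to ORF1p was not tested.

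Sycp1 and Prkra are named because the study examined them singly. Sycp1, the transverse filament of the synaptonemal complex, had 570, 201 and 236 CPM in Mael+/- replicates 1 to 3 and 239, 219 and 230 CPM in Mael-/- replicates (-0.55, SE 0.31, then 0.07, SE 0.10). Prkra, an activator of the kinase PKR, had 174, 185 and 225 CPM against 207, 179 and 209 CPM (0.03, SE 0.12, then -0.05, SE 0.11), and its groups overlapped in either case.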

How the data were processed

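Per the labels, RNA and ribosome footprints were sequenced from P16 testes of Mael+/- and Mael-/- mice, 3 biological replicates of each. The authors clipped the linker and trimmed the molecular identifier of footprint reads, removed ribosomal reads with Bowtie 1.2.2, aligned the rest to mm10 with STAR 2.6.0c and deposited raw counts from featureCounts (Subread 1.6.4), over coding sequence for footprints and whole mRNAs for RNA. Whether identifiers were used to collapse duplicates, and how reads with several alignments were treated, is not given in the sources used here. The authors' result tables (fold changes, standard errors, p-values) were not used.

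Counts were tested with edgeR 4.0.16 (R 4.3.3; quasi-likelihood test, TMM, default filter, Benjamini-Hochberg adjustment, called at an adjusted p under 0.05), which was tested on simulated data. SE and the 95% intervals of log2 changes come from that fit, and the 95% intervals of pooled ratios are exact counting intervals. DESeq2 1.42.0, limma 3.58.1 voom, other filters and factors, a replicate block and leaving out each library were alternatives. RNA and footprint libraries with the same number come from the same extract, and their deviations from the group correlated across genes at 0.804, 0.667 and 0.726 in Mael+/- and 0.26, 0.276 and 0.262 in Mael-/- extracts, above the limit of 0.1. Of the gene names, 19666 matched GENCODE M21 (GRCm38, the same assembly as mm10), 807 by an older symbol and 147 not at all.

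The groups compared, the gene lists and the tests were chosen with earlier results of these data known. The text names Mael, all called genes, the 10 genes with the smallest p each way in each fit with a mean of at least 20 counts, up to 4 members of a list by p, relatives of the raised genes and the 10 genes with the highest level; from each set examples are given. Sycp1 and Prkra were named because the study examined them, and Akap3, Cox5b, Eif4a2, Oas2, Rps6 and Rpsa after their values were seen.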

Additional observations from a re-analysis of the deposited data

How the results depend on the processing

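With all libraries, edgeR called 8 genes. The count was 26 with DESeq2, 23 with a replicate block, 1 under the stricter filter (mean count of 50 or more), which leaves the 7 raised genes untested, and 2 to 17 when 1 library was left out: 17 without Mael+/- replicate 1, 4 without Mael+/- replicate 2, 2 without Mael+/- replicate 3, and 3, 3 and 4 without Mael-/- replicates 1, 2 and 3. Without Mael+/- replicate 1 the count of 17 became 31 with DESeq2, 6 with limma voom, 67 with no filter, 3 under the stricter filter, 84 with a replicate block, and 4 to 315 when a further library was left out. The value of 315 was without Mael+/- replicate 3 and 42 was without Mael+/- replicate 2, so that 1 Mael+/- library remained, which was assumed to vary like the Mael-/- libraries, and 5, 10 and 4 were without Mael-/- replicates 1, 2 and 3. Same-numbered Mael+/- and Mael-/- footprint libraries correlated at 0.0867, 0.289 and 0.0594 in their deviations, and RNA libraries at 0.239, -0.00598 and 0.171. Differently numbered footprint libraries ran from -0.301 to 0.231. Some same-numbered pairs lay above the limit of 0.1 and others below it, so these values do not settle whether the numbers pair animals. The main fit left such pairing out, and the replicate block is the alternative with it. In RNA, 17 genes became 66 with DESeq2 and 50 with a replicate block. The counts for footprints beyond RNA stayed at 0.

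Of the named genes other than Afp, which was not followed here, 5 changed sign when 1 library was left out, all without being called: Smc1b (-0.0438 to 0.422), Ythdc2 (-0.0585 to 0.398), Sycp1 (-0.813 to 0.068), Prkra (-0.0478 to 0.146) and Eif4a2 (-0.0152 to 0.419). The early meiotic median turned from -0.22 to 0.17 without Mael+/- replicate 1, the spermatogonial median from -0.05 to 0.06 without Mael+/- replicate 2 and the p53 median from -0.04 to 0.04 without Mael+/- replicate 3, and the macrophage median reached 0.62 without Mael+/- replicate 3. Without Mael+/- replicate 1 the Sertoli median also turned from 0.05 to -0.04, the Leydig median from 0.07 to -0.03 and that of ORF1p-bound mRNAs from -0.06 to 0.08. The cause was not tested. Low counts limit the raised genes, since 4 of the 7 rest on at most 2 counts in the Mael+/- group.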

Other observations

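Examples from the 22 higher genes that DESeq2 called without Mael+/- replicate 1 are given here for their values. They were chosen after these were seen and do not stand for the whole set. H2afx, the histone variant phosphorylated at DNA breaks, had 1350, 1050 and 1110 CPM of footprints in Mael+/- replicates 1 to 3 and 1530, 1650 and 1360 CPM in Mael-/- replicates, with a log2 change of 0.37 (SE 0.12) and 0.49 (SE 0.11, adjusted p 0.185 in edgeR) without replicate 1. Hells, a chromatin remodeller, had 420, 280 and 311 CPM against 404, 392 and 387 CPM, Rad51ap2 had 66.7, 27.0 and 27.0 CPM against 42.6, 59.9 and 44.0 CPM, and the mitotic kinesin Kif15 had 98.5, 67.4 and 62.6 CPM against 95.6, 91.6 and 86.0 CPM. For the last 3, Mael+/- replicate 1 lay above all Mael-/- libraries and Mael+/- replicates 2 and 3 lay below them. The change was 0.23 (SE 0.14), 0.27 (SE 0.30) and 0.26 (SE 0.15) with 6 libraries, and 0.41 (SE 0.09), 0.85 (SE 0.15) and 0.49 (SE 0.10) without replicate 1, with adjusted p in the second fit of 0.196, 0.0835 and 0.112, none of them called in edgeR.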
